A study of Mus with 12 samples.

Results

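Red blood cells carry oxygen and therefore live with a constant supply of reactive oxygen, which a small set of cytosolic enzymes removes. The 9 genes described here encode such enzymes together with other red cell enzymes of gas exchange, haem breakdown and iron handling. Prdx2, Cat, Gpx1, Sod1, Bpgm, Car1, Car2, Blvrb and Glrx5 were selected by name and not by a rule on measured values. Earlier results of these data were known when the genes were chosen. All 9 were among the 25247 genes of the blood RNA sequencing table, and 8 of them, all but Car1, were among the 5527 genes expressed highly enough to be tested.

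The blood came from female BALB/c mice that entered the study at 6 weeks of age, in 4 groups with 3 libraries each. Mice of the Solvent group received acetone and olive oil on the dorsal skin and the right ear. Mice of the DNCB group were sensitised there with 1% DNCB (2,4-dinitrochlorobenzene, a contact allergen used to induce skin lesions resembling atopic dermatitis) between days 0 and 9. They were then challenged with 0.5% DNCB between days 12 and 27. The scMSC and scivMSC groups received the same DNCB schedule and, between days 13 and 25, injections of 2000000 human umbilical cord mesenchymal stem cells (MSCs) each. In the scMSC group the cells were given under the skin beside the lesion, and in the scivMSC group equal parts were given under the skin and into the tail vein. All blood was collected on day 30. Both MSC groups thus carried DNCB, and no group received MSCs without it. The labels number the libraries of a group but do not say that each came from a different mouse, so the p-values measure the spread between libraries.

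In red cells, superoxide that leaks from oxygenated haemoglobin is converted to hydrogen peroxide by superoxide dismutase, and the peroxide is then destroyed by peroxiredoxin, catalase and glutathione peroxidase. Bisphosphoglycerate mutase makes the metabolite that lowers the oxygen affinity of haemoglobin, and carbonic anhydrases interconvert carbon dioxide and bicarbonate. Mature mammalian red cells have no nucleus, so their transcripts in blood are carried mainly by reticulocytes, the youngest circulating red cells.

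Whole blood RNA was dominated by haemoglobin, which took between 91.3% and 95.6% of the summed FPKM (fragments normalised for transcript length and library size) in the 12 libraries. The haemoglobin share averaged 93.6% ± 1.20 (SD, n = 3) in Solvent, 92.5% ± 1.01 in DNCB, 94.2% ± 0.377 in scMSC and 94.9% ± 0.854 in scivMSC. Shares of FPKM did not distinguish the 4 groups (exact permutation p = 0.0593), whereas for shares of counts p was 0.0492. Every library of both MSC groups nevertheless lay above every DNCB library. The FPKM share was at most 93.2% in DNCB and at least 93.9% in the MSC groups. The count share was 78.4% to 82.8% in DNCB and 84.9% to 89.0% in the MSC groups. Total counts ranged from 52179764 to 65139421 per library, of which about 5840000 to 12860000 lay outside haemoglobin. The scivMSC libraries held fewer genes with at least 4 counts (14974, 11806 and 13159) than any other library (15195 to 17350). Erythroid transcripts were present in every library: of 15 erythroid marker genes in the table, none was at 0 in any library. Their summed level was 4250 to 4981 FPKM in Solvent, 4292 to 5368 in DNCB, 4359 to 4983 in scMSC and 4775 to 5424 in scivMSC, most of it from 1 gene, Alas2 of haem synthesis (mean 4363 FPKM in Solvent and 4625 in scivMSC). Which blood cells the reads of the 9 genes came from was not measured. In bulk blood, fewer cells of a type and less RNA per cell cannot be told apart.

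Per transcript length, the 9 genes spanned more than 3 orders of magnitude. Gpx1 was the most abundant at a mean of 1092 FPKM over the 12 libraries and ranked 13 among all tested genes, followed by Bpgm at 560.5 FPKM and rank 20. Prdx2 (60.3 FPKM), Cat (53.5 FPKM), Car2 (36.6 FPKM) and Glrx5 (33.6 FPKM) formed a middle tier. Blvrb (12.2 FPKM) and Sod1 (3.40 FPKM) were lower, and Car1 was last at 0.287 FPKM. The ranges of neighbours in this order overlapped between Gpx1 and Bpgm and from Prdx2 down to Blvrb. Bpgm lay above Prdx2, Blvrb above Sod1 and Sod1 above Car1 in every library.

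**Figure D1:**
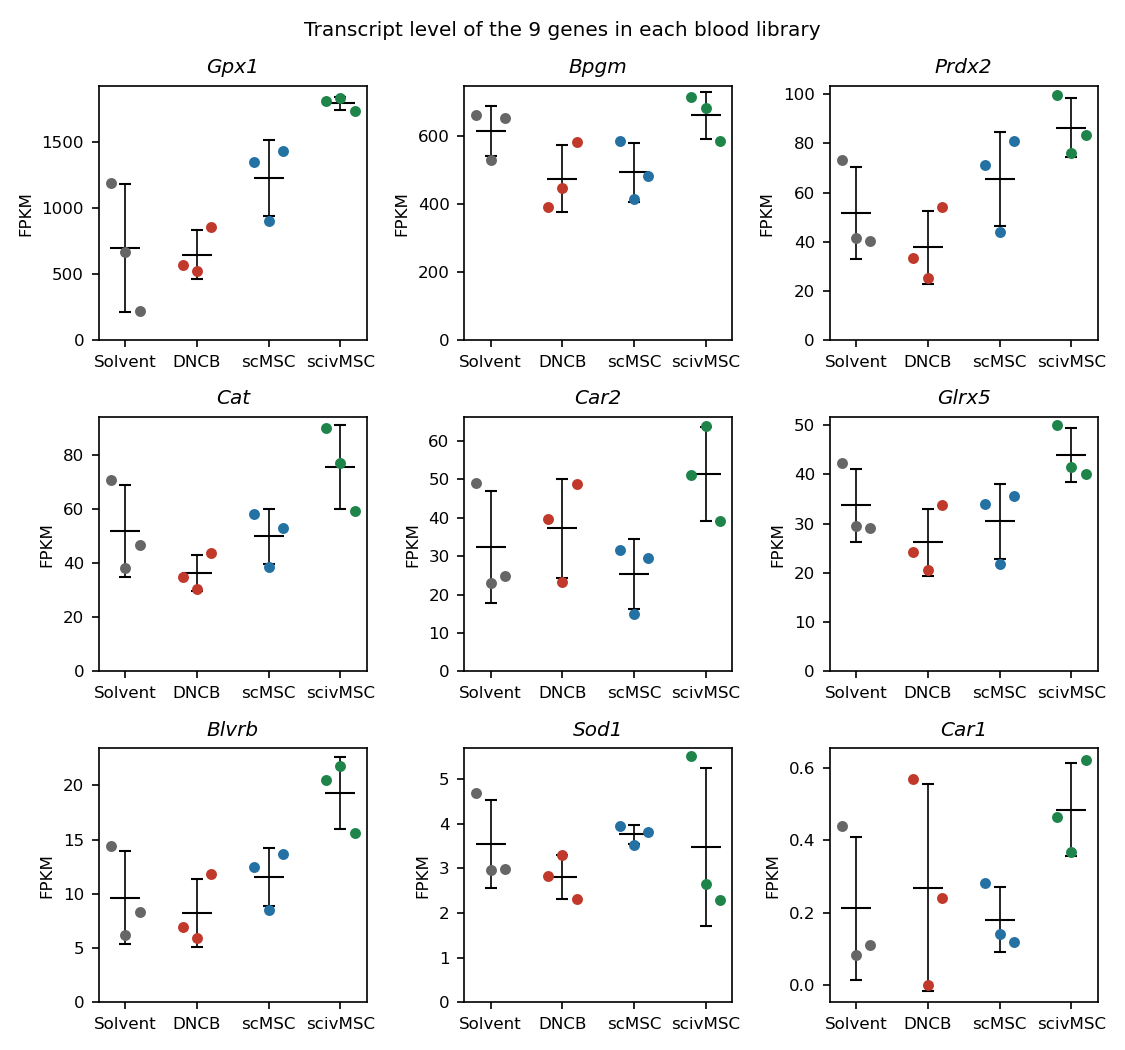
Transcript level (FPKM, linear axis) of each of the 9 genes, with 1 point per library, and the mean and SD of the 3 libraries of each group in black. The 3 scivMSC libraries lie above all 3 DNCB libraries for Gpx1, Prdx2, Cat, Blvrb, Bpgm and Glrx5, while the groups overlap for Sod1, Car2 and Car1.

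Gpx1, Prdx2 and Cat, the peroxide-removing enzymes of the set, had their highest mean levels in the mice given MSCs by both routes. Mean Gpx1 was 649 ± 183 FPKM in DNCB and 1793 ± 49.9 FPKM in scivMSC (SD, n = 3), mean Prdx2 was 37.8 ± 14.9 and 86.3 ± 11.9 FPKM, and mean Cat was 36.4 ± 6.73 and 75.6 ± 15.5 FPKM. With Blvrb, 4 of the 8 tested genes were called higher in scivMSC compared with DNCB, meaning an adjusted p under 0.05 (edgeR quasi-likelihood test, Benjamini-Hochberg over all tested genes) and a fold change over 2. Across all tested genes 1.43% were called higher in that comparison, whereas 62% were called lower, and the median log2 fold change of all tested genes was -1.53. In 6 of the 8 genes the 3 scivMSC libraries lay above all DNCB libraries, against 5.41% of all tested genes.

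Gpx1 encodes glutathione peroxidase 1, which reduces hydrogen peroxide with glutathione. Its gene lies at chr9:108338903-108340343 on the plus strand. Gpx1 measured 1194, 671 and 225 FPKM in the Solvent libraries, 567, 521 and 859 in DNCB, 1352, 903 and 1435 in scMSC, and 1810, 1832 and 1737 in scivMSC. The scivMSC libraries sat above every other library, the scMSC libraries sat above every DNCB library, and Solvent replicate 3 was the lowest of all 12. Compared with DNCB, Gpx1 was higher in scivMSC by 1.46 on the log2 scale (SE 0.385, 95% interval 0.65 to 2.27, edgeR adjusted p = 0.00341). The difference between scMSC and DNCB was 0.91 (SE 0.380, adjusted p = 0.0839), which did not pass the test. Gpx1 was also the 1 gene of the 8 called in scivMSC compared with Solvent (log2 fold change 1.36, SE 0.384, edgeR adjusted p = 0.00580), where 2.59% of all tested genes were called higher. This call rested on Solvent replicate 3: without it the difference was 0.94, under the limit.

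Prdx2 encodes peroxiredoxin 2, among the most abundant proteins of the red cell cytosol. The gene lies at chr8:84969587-84974834 on the plus strand and overlaps Rnaseh2a on the minus strand, and the table holds a separate Prdx2 pseudogene. Whether reads were counted by strand was not given in the sources used here, so reads of overlapping or similar genes may be shared. Prdx2 measured 73.3, 41.5 and 40.3 FPKM in Solvent, 33.4, 25.5 and 54.3 in DNCB, 71.3, 44.2 and 81.1 in scMSC, and 99.5, 76.2 and 83.3 in scivMSC. All scivMSC libraries exceeded all Solvent and all DNCB libraries, and overlapped those of scMSC. The log2 fold change in scivMSC compared with DNCB was 1.19 (SE 0.315, 95% interval 0.52 to 1.85, edgeR adjusted p = 0.00360), and in scMSC compared with DNCB it was 0.78 (SE 0.313, adjusted p = 0.0717). Without DNCB replicate 2, the lowest library, the scivMSC difference was 0.97 and no longer passed the fold limit.

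Cat encodes catalase, which splits hydrogen peroxide without a reducing partner, and lies at chr2:103453849-103485160 on the minus strand. Cat measured 70.9, 38.1 and 46.9 FPKM in Solvent, 35.1, 30.4 and 43.7 in DNCB, 58.2, 38.7 and 52.9 in scMSC, and 90.1, 77.3 and 59.3 in scivMSC. The scivMSC libraries lay above those of DNCB and scMSC but overlapped Solvent replicate 1. Its log2 fold change in scivMSC compared with DNCB was 1.05 (SE 0.274, 95% interval 0.47 to 1.63, edgeR adjusted p = 0.00320). The value fell under the fold limit without DNCB replicate 2 (0.94) and without scivMSC replicate 1 (0.90).

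Sod1 encodes the cytosolic copper and zinc superoxide dismutase. On total counts it was not called in either MSC group compared with DNCB. It lies at chr16:90220754-90226329 on the plus strand, overlapping Scaf4 on the minus strand. Sod1 measured 4.68, 2.96 and 2.98 FPKM in Solvent, 2.84, 3.29 and 2.30 in DNCB, 3.94, 3.53 and 3.82 in scMSC, and 5.50, 2.64 and 2.28 in scivMSC. The scivMSC group held both the highest and the lowest of the 12 values. Compared with DNCB, the log2 difference was 0.30 (95% interval -0.45 to 1.05, edgeR adjusted p = 0.459) in scivMSC and 0.41 (95% interval -0.35 to 1.16, adjusted p = 0.411) in scMSC, intervals that still include a change of 2-fold. With TMM scaling, which centres the bulk of genes, Sod1 was called higher in scivMSC (1.87, edgeR adjusted p = 1.1e-05) and in scMSC (1.11, adjusted p = 0.000834). Scaled by the erythroid markers, the scivMSC difference was -0.45 (edgeR adjusted p = 0.306). Within-library ratios of Gpx1, Prdx2 and Cat to Sod1 were not distinguished by group (exact permutation, adjusted p = 0.106, 0.2125 and 0.113).

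Bpgm encodes the mutase that makes 2,3-bisphosphoglycerate and lies at chr6:34476207-34505613 on the plus strand. It measured 661, 529 and 653 FPKM in Solvent, 391, 448 and 582 in DNCB, 585, 414 and 481 in scMSC, and 715, 682 and 584 in scivMSC. Its highest library was 1.83 times its lowest, the narrowest spread of the 9 genes, and the lowest scivMSC value was barely above the highest DNCB value. The difference between scivMSC and DNCB was 0.47 on the log2 scale (SE 0.177, edgeR adjusted p = 0.0259), which passed the test but not the fold limit. Between DNCB and Solvent it was -0.37 (SE 0.177), with an unadjusted p of 0.0499 and an edgeR adjusted p of 0.151.

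The carbonic anhydrase genes Car1 and Car2 are neighbours on chromosome 3, at chr3:14766216-14808365 on the minus strand and chr3:14886273-14900770 on the plus strand, with 77907 bases between them, and differed widely in level. Car2 encodes the fast cytosolic form. It measured 49.2, 23.2 and 24.8 FPKM in Solvent, 39.7, 23.4 and 48.7 in DNCB, 31.7, 15.0 and 29.6 in scMSC, and 51.3, 63.8 and 39.2 in scivMSC. Car2 had its lowest group mean in scMSC (25.4 ± 9.10 FPKM) and its highest in scivMSC (51.4 ± 12.3 FPKM). It was the 1 gene of the 8 called between the MSC routes, higher in scivMSC by 1.02 on the log2 scale (SE 0.363, 95% interval 0.26 to 1.79, edgeR adjusted p = 0.0416), where 0.344% of all tested genes were called higher. The call was lost without DNCB replicate 1, any of the scMSC replicates, or scivMSC replicate 2 or 3, when the difference ran from 0.75 to 1.21, and also when only the libraries of both MSC groups were fitted. Compared with DNCB, Car2 differed by -0.56 (adjusted p = 0.258) in scMSC and by 0.46 (adjusted p = 0.264) in scivMSC.

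Car1 was barely detected. Its counts ran from 0 in DNCB replicate 2 to 45 in scivMSC replicate 3, and 5 of the 12 libraries held at most 12 counts, about 3 fragments at the 4 counts that the table appears to give each fragment. Car1 measured 0.440, 0.0842 and 0.111 FPKM in Solvent, 0.568, 0 and 0.239 in DNCB, 0.283, 0.140 and 0.12 in scMSC, and 0.463, 0.367 and 0.623 in scivMSC. The groups overlapped except that scivMSC lay above scMSC, and a difference was not detectable at this depth. Tested without the filter on low values, the fitted log2 difference, which depends on the prior count for so rare a gene, was 0.86 (SE 1.15, edgeR adjusted p = 0.665) between scivMSC and DNCB and 1.36 (SE 1.16, adjusted p = 0.502) between scivMSC and scMSC.

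Blvrb encodes biliverdin reductase B, a flavin reductase that is abundant in red cells, and lies at chr7:27447978-27466144 on the plus strand. It measured 14.4, 6.22 and 8.33 FPKM in Solvent, 6.91, 5.95 and 11.8 in DNCB, 12.5, 8.54 and 13.6 in scMSC, and 20.5, 21.8 and 15.6 in scivMSC. The 3 scivMSC libraries were the 3 highest of the 12. Compared with DNCB, Blvrb was higher in scivMSC by 1.23 on the log2 scale (SE 0.356, 95% interval 0.47 to 1.98, edgeR adjusted p = 0.00638). Compared with Solvent it was higher by 0.99 (SE 0.354, edgeR adjusted p = 0.0214), which passed the test at just under the fold limit.

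Glrx5 encodes a mitochondrial glutaredoxin needed to assemble iron-sulphur clusters and, through them, for haem synthesis. It lies at chr12:105032688-105042906 on the plus strand. Glrx5 measured 42.3, 29.5 and 29.2 FPKM in Solvent, 24.3, 20.6 and 33.7 in DNCB, 34.0, 21.8 and 35.6 in scMSC, and 50.1, 41.5 and 40.0 in scivMSC. The scivMSC libraries lay above those of DNCB and scMSC. Glrx5 was higher in scivMSC than in DNCB by 0.74 on the log2 scale (SE 0.266, edgeR adjusted p = 0.0218), again under the fold limit.

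DNCB alone was not accompanied by a called change in any of the 8 genes. Compared with Solvent, 0 of 8 were called by edgeR, DESeq2 or limma, against 20.5% of all tested genes by edgeR, and 1 (Bpgm) had an unadjusted p under 0.05. The 8 log2 fold changes ran from -0.51 for Cat to 0.20 for Car2, with a median of -0.35 against 0.06 for all tested genes. In scMSC compared with DNCB, 0 of 8 were called by edgeR, against 26.1% of all tested genes, while 2 (Gpx1 and Prdx2) had an unadjusted p under 0.05 and DESeq2 called 5 (8.85% of all tested genes higher). Gpx1 and Sod1 were the 2 of 8 whose scMSC libraries all lay above DNCB, against 5.54% of all tested genes. In scMSC compared with Solvent, 0 of 8 were called by edgeR, against 0.651% of all tested genes, with 1 (Gpx1) at an unadjusted p under 0.05 and 1 called by DESeq2 (8.16% of all tested genes higher). Over the 4 groups at once, Gpx1, Prdx2, Cat and Blvrb passed the edgeR F test (4 of 8, adjusted p from 0.00603 to 0.0195), against 72.3% of all tested genes.

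**Figure D2:**
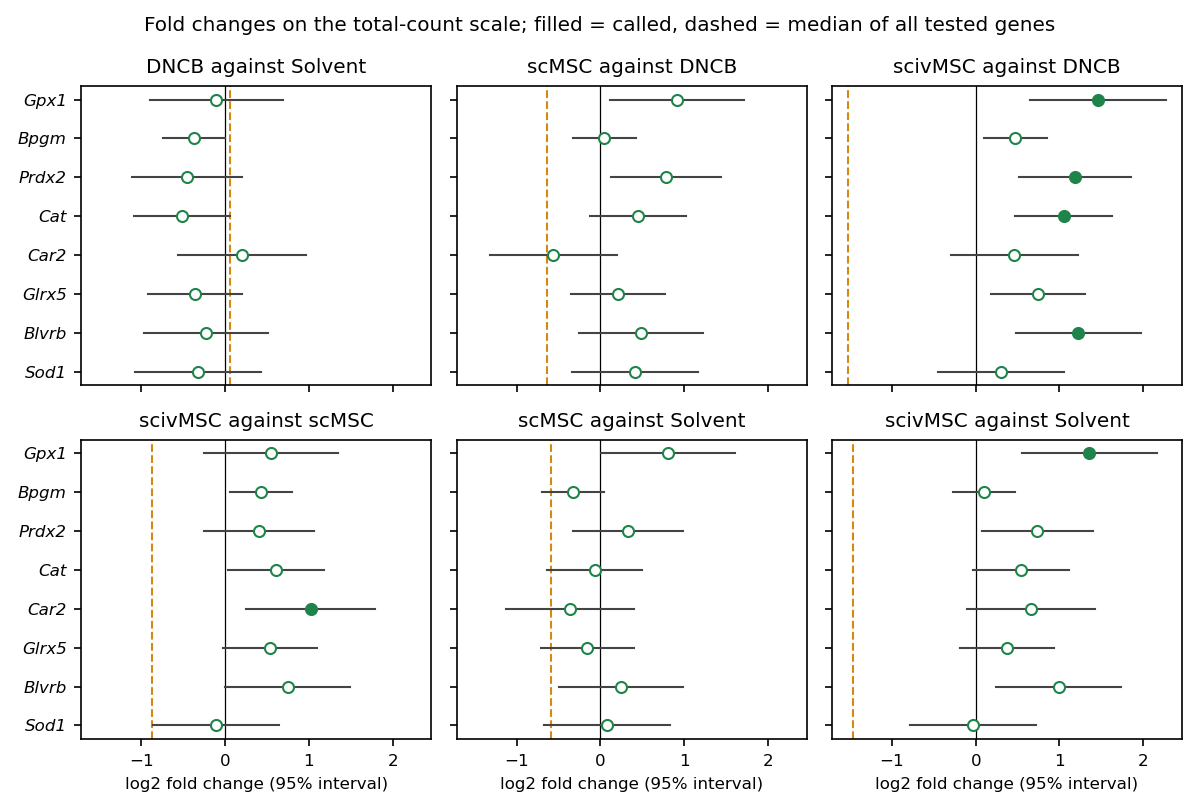
log2 fold change and 95% interval of the 8 tested genes in each of the 6 comparisons, with libraries scaled by total counts. Filled points passed both the test and the fold limit, and the dashed line marks the median of all 5527 tested genes, which lies at -1.53 for scivMSC compared with DNCB while all 8 genes lie above 0.

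How large the scivMSC difference appeared depended on what the libraries were scaled by. With haemoglobin left out of the library totals, 7 of 8 genes were called higher in scivMSC compared with DNCB (6.17% of all genes tested), and with TMM scaling, which centres the bulk of genes, 8 of 8 were called (20.6% of all tested genes). When libraries were scaled by the erythroid markers, 0 of 8 were called higher (0.271% of all tested genes). On that scale Gpx1 still differed by 0.84 (edgeR adjusted p = 0.0330), Blvrb by 0.62 (adjusted p = 0.0805), Prdx2 by 0.59 (adjusted p = 0.0517) and Cat by 0.40 (adjusted p = 0.169). Bpgm, Car2 and Sod1 had values of -0.19, -0.15 and -0.45. The median of all tested genes was -1.53 on total counts, -0.99 without haemoglobin, 0.04 with TMM and -2.28 on the erythroid scale. On TMM scaling, 5 of 8 were called higher in scMSC compared with DNCB (8.74% of all tested genes), 7 in scivMSC compared with scMSC (13.1%), 1 in scMSC compared with Solvent (7.29%) and 8 in scivMSC compared with Solvent (22.4%). DESeq2, which also centres the bulk of genes, called 8 in scivMSC compared with DNCB (20.9%), 7 compared with scMSC (14.7%) and 8 compared with Solvent (23.4%). Without haemoglobin these counts were 2 in scMSC compared with DNCB (3.6%) and 4 in scivMSC compared with Solvent (6.21%). On the erythroid scale 0 were called higher in scivMSC compared with scMSC (0.181%) and with Solvent (0.525%).

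**Figure D3:**
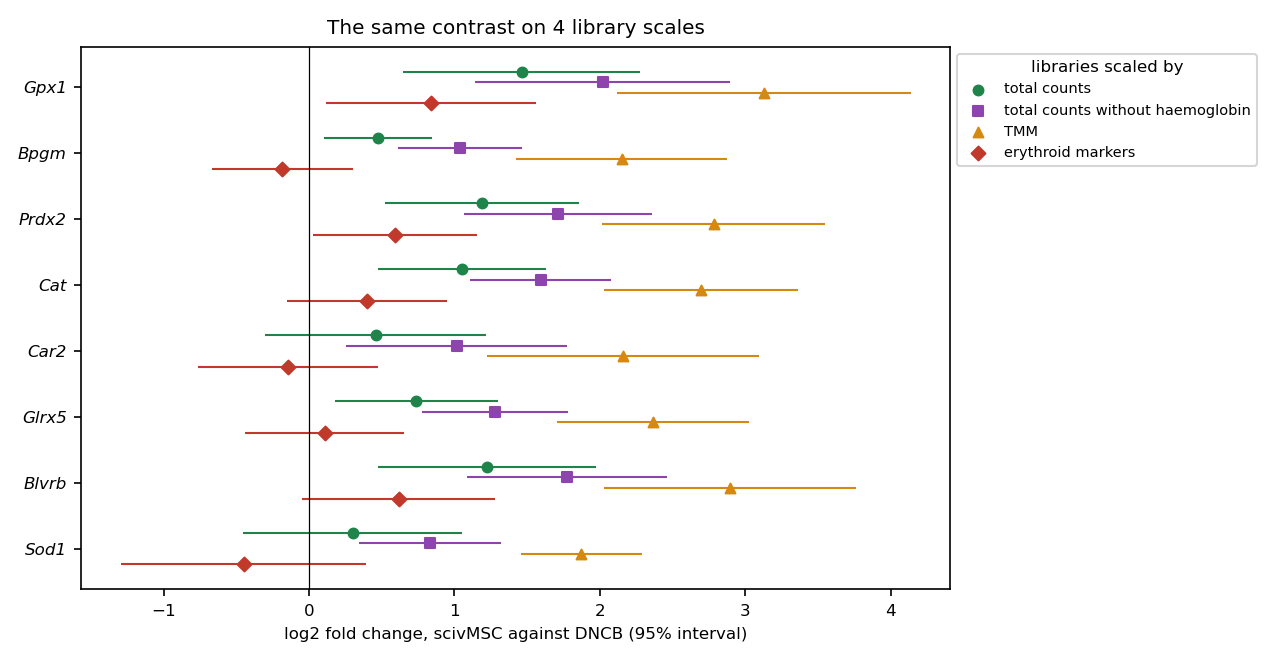
log2 fold change in scivMSC compared with DNCB and its 95% interval for the 8 tested genes on 4 library scales. All 8 values lie above 0 on total counts, without haemoglobin and with TMM, whereas Bpgm, Car2 and Sod1 lie below 0 on the erythroid marker scale.

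As a share of all counts outside haemoglobin, the 9 genes together took 2.35% ± 0.216 in Solvent, 1.77% ± 0.563 in DNCB, 2.97% ± 0.408 in scMSC and 4.89% ± 0.679 in scivMSC (SD, n = 3). The share is mostly Gpx1 and Bpgm. It ran from 4.30% to 5.63% in scivMSC, above every other library. Every library of both MSC groups held fewer counts outside haemoglobin than any Solvent or DNCB library, so the divisor also differed. Summed FPKM of the 9 genes does not use this divisor. It averaged 1494 ± 556 in Solvent, 1272 ± 315 in DNCB, 1910 ± 399 in scMSC and 2734 ± 151.5 in scivMSC. How much of the higher share came from the smaller divisor was not tested.

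Ratios between these genes within a library cannot be altered by library scaling, and some of these ratios differed between the groups. For the 28 pairs of the 8 genes, exact permutation tests over the 4 groups gave p under 0.05 in 13 pairs, and in 4 pairs after Benjamini-Hochberg adjustment over the 28. How often pairs of other genes would pass the same test was not measured. Car2 over Blvrb was 3.41, 3.72 and 2.99 in Solvent, 5.74, 3.92 and 4.13 in DNCB, 2.54, 1.75 and 2.17 in scMSC, and 2.50, 2.93 and 2.51 in scivMSC. DNCB lay above all other groups, Solvent lay between, and the MSC groups were lowest (exact permutation p = 0.000195, adjusted p = 0.00546). Prdx2 over Car2 was 0.843 to 1.11 in DNCB, 1.49 to 1.79 in Solvent, 1.19 to 2.13 in scivMSC and 2.25 to 2.95 in scMSC (exact permutation p = 0.00214, adjusted p = 0.0300). DNCB was lowest and scMSC highest, with no overlap with the other groups.

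Gpx1 and Prdx2 also changed relative to Glrx5, the iron-sulphur cluster gene. Prdx2 over Glrx5 was 1.38 to 1.73 in Solvent, 1.24 to 1.61 in DNCB, 2.03 to 2.28 in scMSC and 1.84 to 2.08 in scivMSC (exact permutation p = 0.00364, adjusted p = 0.0318). Gpx1 over Glrx5 was 7.71 to 28.2 in Solvent, 23.4 to 25.5 in DNCB, 39.7 to 41.5 in scMSC and 36.1 to 44.2 in scivMSC (exact permutation p = 0.00455, adjusted p = 0.0318). For both ratios every library of either MSC group lay above every Solvent and DNCB library. Leaving out each library in turn kept the unadjusted p of these 4 ratios at 0.0329 or lower, but the number passing after adjustment ran from 0 without DNCB replicate 1 to 11 without Solvent replicate 1. Gpx1 over Blvrb (p = 0.370), Prdx2 over Cat (p = 0.242) and Prdx2 over Blvrb (p = 0.218) were not distinguished by the same exact permutation test.

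**Figure D4:**
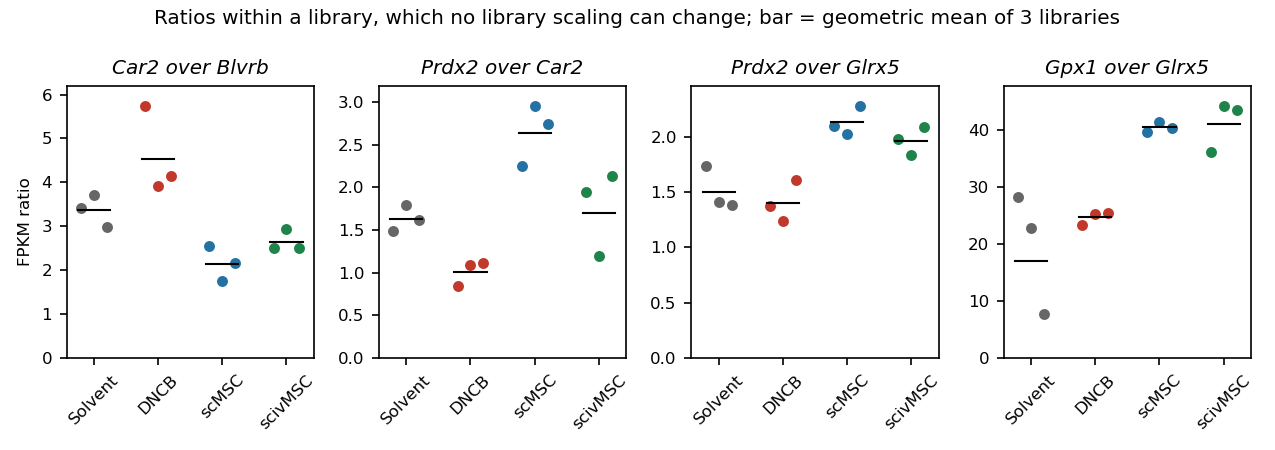
FPKM ratios within each library for the 4 gene pairs that passed after adjustment, on linear axes from 0, with 1 point per library and a bar at the geometric mean of each group. Car2 over Blvrb is highest in DNCB, and Prdx2 and Gpx1 relative to Glrx5 are higher in every library of both MSC groups than in Solvent and DNCB.

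Among other genes of antioxidant defence, several had their highest level in DNCB. Of 27 listed genes 20 were tested, and 10 were called higher in DNCB compared with Solvent, against 15.6% of all tested genes, among them Msrb1, a methionine sulphoxide reductase (17.9 ± 3.04 FPKM in Solvent and 148 ± 44.4 in DNCB, log2 fold change 3.05, edgeR adjusted p = 8.14e-05). In scMSC compared with DNCB 8 of the 20 were called lower and 0 higher, against 24.9% of all tested genes called lower. Msra, which repairs the other epimer of oxidised methionine, was lower by 3.23 on the log2 scale (2.90 ± 1.28 FPKM in DNCB and 0.307 ± 0.0860 in scMSC, edgeR adjusted p = 0.000521). Against DNCB, scivMSC had 9 of the 20 called lower, a smaller share than the 62% of all tested genes, with Msrb1 at 11.6 ± 6.78 FPKM (log2 fold change -3.68, edgeR adjusted p = 7.13e-06). The 1 gene called higher there was Gclm, the modifier subunit of the enzyme that starts glutathione synthesis, named after its values were seen (4.66 ± 1.15 FPKM in DNCB and 10.4 ± 1.66 in scivMSC, log2 fold change 1.15, edgeR adjusted p = 0.00700). Between the MSC routes 2 of the 20 were called lower in scivMSC, a smaller share than the 30.4% of all tested genes. They were Hmox1, the inducible haem oxygenase (log2 fold change -1.23, edgeR adjusted p = 0.0285), and Msrb1.

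Other cytosolic enzymes known from red cells, mainly of glycolysis, the pentose phosphate pathway and nucleotide salvage, were set beside them. Of 25 listed genes 19 were tested, with 4 called higher in DNCB compared with Solvent, near the 15.6% of all tested genes. Compared with DNCB, 8 were called lower in scMSC, where 24.9% of all tested genes were, and 9 in scivMSC, below the 62% of all tested genes. Transketolase (Tkt) averaged 2.19 ± 0.546 FPKM in Solvent, 10.3 ± 3.16 in DNCB, 1.67 ± 0.191 in scMSC and 1.58 ± 1.45 in scivMSC. Gpi1, the glycolytic glucose phosphate isomerase, averaged 20.4 ± 5.67 FPKM in DNCB and 2.09 ± 1.19 in scivMSC (log2 fold change -3.29, edgeR adjusted p = 8.56e-06). Aprt, an adenine salvage enzyme, was 1 of 2 called lower in scivMSC compared with scMSC (log2 fold change -1.57, edgeR adjusted p = 0.0218), the other being Eno1. These 2 of 19 were a smaller share than the 30.4% of all tested genes called lower there. Acp1, a cytosolic phosphatase, was the 1 listed gene called higher in scivMSC compared with DNCB (1.37 ± 0.397 and 3.29 ± 0.550 FPKM, log2 fold change 1.25, edgeR adjusted p = 0.00673).

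Against these lists the medians in scivMSC compared with DNCB were 0.89 for the 8 tested genes, -0.68 for the other antioxidant genes and -1.07 for the other red cell enzymes, beside -1.53 for all tested genes. These list medians turned with the scale: with TMM they were 0.98 for the other antioxidant genes (10 called higher, 6 lower) and 0.45 for the other red cell enzymes (9 higher, 4 lower), and on the erythroid scale they were -1.42 (0 higher, 11 lower) and -1.84 (0 higher, 11 lower). Of all tested genes 20.6% were called higher with TMM and 0.271% on the erythroid scale, with medians of 0.04 and -2.28. The share of all tested genes called lower was not taken on these 2 scales. The counts called lower there are therefore not read as a result about the lists. For the 11 tested erythroid markers the median was 0.56 and 1 was called, the transcription factor gene Gata1 (2.16 ± 0.221 FPKM in DNCB, 9.55 ± 1.27 in scivMSC), while with TMM all 11 were called higher. None of the 14 other carbonic anhydrase genes was expressed highly enough to be tested. Of 14 genes of iron-sulphur cluster assembly 6 were tested. In scivMSC compared with DNCB 4 of the 6 lay above 0, as Glrx5 did, with a list median of 0.09. Hspa9, a mitochondrial chaperone, was the 1 called, and it was lower in scivMSC (1.80 ± 0.246 FPKM in DNCB and 0.787 ± 0.584 in scivMSC, log2 fold change -1.19, edgeR adjusted p = 0.0239). Of all tested genes 62% were called lower in that comparison. With TMM, 5 of those 6 were called higher and Hspa9 was not called. The comparisons with DNCB share the same 3 control libraries and are not independent of each other.

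**Figure D5:**
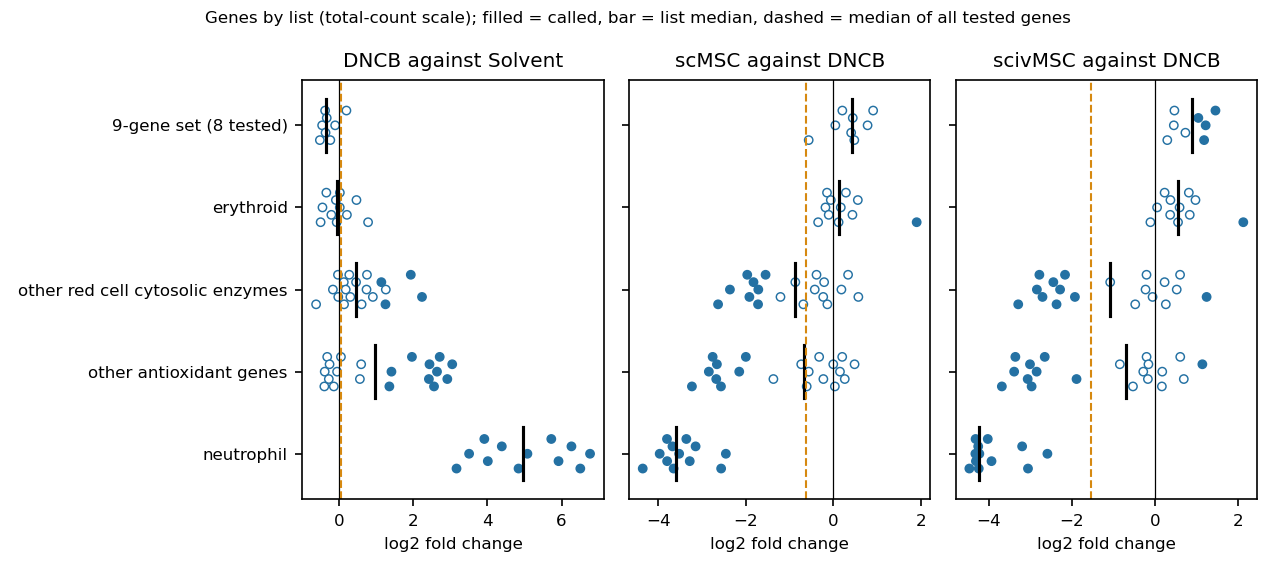
log2 fold change of each tested gene in 5 gene lists for 3 comparisons, with libraries scaled by total counts. Filled points passed the test and the fold limit, bars mark list medians and the dashed line the median of all tested genes. In scivMSC compared with DNCB the red cell set has a median of 0.89 and the neutrophil markers lie far below 0.

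Neutrophil transcripts were far higher in DNCB than in all other groups. The 12 neutrophil markers summed to 223 to 449 FPKM in Solvent, 7070 to 11090 in DNCB, 585 to 727 in scMSC and 249 to 750 in scivMSC, none of them was at 0, and 12 of 12 were called higher in DNCB compared with Solvent and lower in each MSC group compared with DNCB. Compared with DNCB, scivMSC had called decreases in 8 of 8 tested monocyte markers, 9 of 9 tested B cell markers, 2 of 10 T cell markers and 2 of 3 tested NK cell markers, against 0 of 10 platelet markers. Of all tested genes 62% were called lower in that comparison, so the T cell count lay below and the NK cell count near the share of all genes. The 12 neutrophil calls held on all 4 scales, whereas with TMM 0 of 9 B cell and 0 of 10 T cell markers were called lower, 6 of 8 monocyte markers were, and 9 of 10 platelet markers were called higher. With TMM 20.6% of all tested genes were called higher, and the share called lower was not taken. Summed monocyte markers were 28.8 to 51.4 FPKM in DNCB and 1.35 to 4.31 in scivMSC. The part of these shifts in the values of the 9 genes was not tested.

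The expression patterns of the 8 genes over the 12 libraries were alike to different degrees. On log2(FPKM + 1), with the correlation given as a description over libraries that share the same scale, Pearson's r was highest between Cat and Blvrb (0.940) and between Cat and Glrx5 (0.938), and lowest between Sod1 and Car2 (0.00607). Each gene's r with the mean of the 8 ran from 0.431 for Sod1 to 0.979 for Cat. In the search outside the set, predicted genes with only a systematic name and ribosomal protein pseudogenes were passed over. Among the remaining tested genes, the closest to that mean was Hagh, a glyoxalase that releases glutathione (r = 0.967). Rnf10, Ube2c and Acp1 were also among the closest (r from 0.955 to 0.966). Hagh was also closest to Prdx2 (r = 0.969) and Blvrb (r = 0.966), Acp1 to Cat (r = 0.987), Ube2c to Glrx5 (r = 0.983), Xpo7 to Car2 (r = 0.971), Plaat3 to Bpgm (r = 0.950), Mrps6 to Sod1 (r = 0.903) and Cdc42ep5 to Gpx1 (r = 0.896). Mean Hagh was 56.4 FPKM in Solvent, 44.5 in DNCB, 59.9 in scMSC and 85.3 in scivMSC.

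The annotation deposited with the table gives 6 of the 9 genes the term oxidation-reduction process, namely Prdx2, Cat, Gpx1, Sod1, Blvrb and Glrx5. Prdx2, Cat and Gpx1 share hydrogen peroxide catabolic process with 20 genes of the table in all, of which 11 were tested. Sod1, Car1 and Car2 share zinc ion binding.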

How the data were processed

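RNA of whole blood was sequenced in 12 libraries of 4 groups. Per the submitters' processing notes, Bowtie 0.12.2, HISAT2 2.0 and StringTie 1.3.0 were used with build mm8. However, 99.93% of the genes matched by symbol overlap their RefSeq GRCm38.p6 positions, as do all 9 genes here, so coordinates are printed as the table gives them. The authors deposited FPKM values and estimated counts per gene. Small counts heap at 4, 8 and 12 (29.0%, 16.0% and 9.75% of counts from 1 to 12), and 4 counts were taken as 1 fragment. The deposited table's own descriptions supplied the annotation terms.

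The estimated counts were rounded and tested with edgeR 4.0.16 (quasi-likelihood, R 4.3.3) in one fit of all libraries, scaled by total counts, over genes with FPKM of at least 1 in at least 3 libraries, with Benjamini-Hochberg adjustment. A call needed an adjusted p under 0.05 and a fold change over 2. DESeq2 1.42.0, limma 3.58.1 on log2(FPKM + 1) or log2(FPKM + 0.1), other scalings, filters, a replicate block and leaving out each library were alternatives. Haemoglobin shares and FPKM ratios were tested by exact permutation over 369600 splits. All 9 genes were named, and from each related list the called gene of largest change with groups apart in 4 comparisons. The genes and lists were chosen with earlier results of these data known. Leaving each library out of the ratio tests was added after seeing the data. Promoter motifs and protein sequences were not analysed here. 1 of the genes closest to the mean of the set is not reported here.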

Additional observations from a re-analysis of the deposited data

How the results depend on the processing

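The counts of called genes among the 8 depended mainly on library scaling. In scMSC compared with DNCB 0 genes were called on total counts, 5 with TMM, 5 with DESeq2 and 2 without haemoglobin. In scivMSC compared with DNCB the 4 calls became 8 with TMM, 8 with DESeq2, 7 without haemoglobin and 0 on the erythroid scale. In scivMSC compared with scMSC the 1 call became 7 with TMM, 7 with DESeq2 and 0 on the erythroid scale, with a mean FPKM of at least 5 or with only these 2 groups fitted. In scMSC compared with Solvent 1 gene was called with TMM and 1 with DESeq2. In scivMSC compared with Solvent the 1 call became 8 with TMM, 8 with DESeq2, 4 without haemoglobin, 0 on the erythroid scale and 2 with limma on log2(FPKM + 0.1). The F test over 4 groups called 8 with TMM, 8 with DESeq2, 8 without haemoglobin and 0 on the erythroid scale. For the F test the share of all tested genes was taken only on total counts, where it was 72.3%. The F test counts under other settings are therefore not read as a result about the set. The share was likewise not taken for limma, the mean FPKM filter, fits of only 2 groups, the replicate block or leaving out libraries. Counts under those settings show how far the calls held and are not read as a result about the set either. The haemoglobin share of counts in place of FPKM gave an exact permutation p of 0.0492. The causes were not tested beyond the shift of the all-gene median given above. Using no filter or counts divided by 4 changed no direction or call of the 48 fold changes.

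Same-numbered libraries did not deviate together (2 of 18 pairs had a correlation over 0.1, range -0.157 to 0.132, and 7 of 12 libraries were closest to their own number), so the numbers were not taken as pairs. With the replicate block scivMSC compared with Solvent gave 2 calls in place of 1, adding Blvrb at 1.07, the F test gave 6 in place of 4, and no other count changed.

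Leaving out each library in turn gave 0 to 0 calls in DNCB compared with Solvent, 0 to 1 in scMSC compared with DNCB, 2 to 4 in scivMSC compared with DNCB (2 without DNCB replicate 2), 0 to 1 in scivMSC compared with scMSC, 0 to 0 in scMSC compared with Solvent, 0 to 4 in scivMSC compared with Solvent (4 without Solvent replicate 1, 2 without scivMSC replicate 3, 0 without Solvent replicate 3) and 2 to 6 in the F test (2 without DNCB replicate 2). The 1 call in scMSC compared with DNCB was Prdx2, at 1.14 with DNCB replicate 3 left out and 1.00 with scMSC replicate 2 left out. The haemoglobin share had an exact permutation p of 0.0138 to 0.162, and 0 to 11 gene ratios passed after adjustment.

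Sod1 in scivMSC compared with Solvent turned from -0.03 on total counts to a call with TMM (edgeR adjusted p = 8.37e-05) and with DESeq2 (adjusted p = 6.8e-11). None of the values that changed sign was called on total counts. With TMM they were, on the log2 scale, Cat 0.48, Bpgm 0.16, Car2 0.20 and Glrx5 0.37 in scMSC compared with Solvent, Car2 0.02 in scMSC compared with DNCB, and Sod1 0.76 and 1.40 in scivMSC compared with scMSC and Solvent. With DESeq2 they were Cat 0.47, Bpgm 0.16, Car2 0.19 and Glrx5 0.36 in scMSC compared with Solvent and Sod1 0.80 and 1.43. Without haemoglobin they were Cat 0.17 and Glrx5 0.06 in scMSC compared with Solvent and Sod1 0.03 and 0.35. On the erythroid scale they were, in scivMSC compared with DNCB, Sod1 -0.45, Bpgm -0.19 and Car2 -0.15, compared with scMSC, Prdx2 -0.01 and Bpgm -0.02, and compared with Solvent, Cat -0.07, Bpgm -0.54 and Glrx5 -0.25, and in scMSC, Sod1 -0.05 compared with Solvent and Bpgm -0.16 compared with DNCB. With limma at either pseudocount Gpx1 in DNCB compared with Solvent was 0.16. Leaving out single libraries turned the sign of 11 values, whose ranges were, in DNCB compared with Solvent, Gpx1 -0.52 to 0.54, Car2 -0.04 to 0.64 and Blvrb -0.58 to 0.18, in scMSC compared with Solvent, Cat -0.25 to 0.22, Sod1 -0.04 to 0.34, Car2 -0.56 to 0.08 and Glrx5 -0.28 to 0.05, in scMSC compared with DNCB, Bpgm -0.09 to 0.22, and for Sod1 in scivMSC -0.20 to 0.53 compared with DNCB, -0.61 to 0.12 compared with scMSC and -0.53 to 0.23 compared with Solvent.

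Groups of 3 libraries limit every comparison, and Car1, with at most 45 counts, was fitted only without the filter and with wide errors.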
